A study of Homo sapiens with 6 samples.

Results

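The genes described here are 10 genes whose products mark the epithelium of the colon, given as a list of symbols: CDX1, CDX2, HNF4A, VIL1, KRT20, CDH17, EPCAM, CEACAM5, CEACAM6 and CFTR. All 10 were found among the 58051 genes of the count table by their Ensembl identifiers. Of these, 7 were among the 16974 genes that passed a limit on low counts, and 3 (CDX1, CEACAM5 and CEACAM6) did not and so were not tested. The limit asked for a CPM, a count scaled to a common library size, above 1 in 3 or more libraries. The libraries hold total RNA of DLD-1, an established line from a human colorectal adenocarcinoma. The study set RNAs that respond to a block of the export receptor CRM1 beside those that depend on TPR, a protein of the basket of the nuclear pore.

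In all 6 cultures the TPR gene carried, on both alleles, an auxin-inducible degron (AID) and the NeonGreen fluorescent protein, and TIR1, the plant F-box protein through which auxin acts on the degron, had been inserted at the RCC1 gene. All 6 cultures also received 200 nM Leptomycin B, an inhibitor of CRM1, for 3 h. The 3 cultures of the LMB group received nothing more. The 3 cultures of the LMB+auxin group were given 1 mM auxin during the last 2 h, as the description of the series states, which directs degradation of the TPR protein. The sample titles give 2 h for both groups. The degron removes protein, so the RNA of TPR is no check on the labels. Whether the tagged line was 1 clone was not given in the sources used here. No culture without Leptomycin B was analysed here. Total counts ran from 28261903 to 35992425 per library. Replicate numbers 1 to 3 occur in both groups, and libraries that share a number deviated from their group means together, so values are also given within numbers.

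The colon epithelium is a single sheet of absorptive and secretory cells that arise from stem cells in the crypts. CDX1 and CDX2 are homeobox transcription factors that set intestinal identity, and HNF4A is a nuclear receptor that acts with them on genes of the differentiated cell. The other genes on the list encode parts of the mature epithelial cell: the microvillus protein villin (VIL1), an intermediate filament keratin (KRT20), adhesion molecules (CDH17, EPCAM, CEACAM5 and CEACAM6) and the apical chloride channel (CFTR). Several of them are used in pathology to trace a carcinoma to the colon.

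The stretches upstream of 4 of these genes are shown because the genes lay at opposite ends of the range of levels: CDX2 and KRT20 were abundant, and the neighbouring CEACAM5 and CEACAM6 were almost absent. They are RefSeq sequences of GRCh38.p14, written 5′ to 3′ on the strand of the gene, and positions are counted back from the base before the annotated start, which is -1. CDX2 and KRT20 are given from -250 to -1 (chr13:27969316-27969565, minus strand, and chr17:40885243-40885492, minus strand). CEACAM5 and CEACAM6 are given from -250 to -51 (chr19:41708376-41708575 and chr19:41755280-41755479, both plus strand). These positions follow RefSeq starts, which differ from the GENCODE gene models used for the levels. By GENCODE the CEACAM5 gene starts at chr19:41708585, between its printed stretch and the RefSeq start. The CEACAM6 gene starts there at chr19:41750977, so its stretch lies inside that gene model. Capitals mark matches to TTTATG, a core of CDX sites, or to TATAAA, the TATA box, on either strand.
CDX2: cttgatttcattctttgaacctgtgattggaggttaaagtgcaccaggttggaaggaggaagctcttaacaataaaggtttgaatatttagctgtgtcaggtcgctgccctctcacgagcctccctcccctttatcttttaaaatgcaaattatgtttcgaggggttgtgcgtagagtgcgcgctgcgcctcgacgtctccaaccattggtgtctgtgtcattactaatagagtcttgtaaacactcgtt
KRT20: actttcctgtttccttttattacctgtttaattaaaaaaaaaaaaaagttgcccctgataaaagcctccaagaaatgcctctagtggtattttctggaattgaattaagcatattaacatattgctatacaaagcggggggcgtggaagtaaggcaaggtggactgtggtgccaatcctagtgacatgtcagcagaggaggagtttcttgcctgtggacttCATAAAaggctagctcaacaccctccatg
CEACAM5: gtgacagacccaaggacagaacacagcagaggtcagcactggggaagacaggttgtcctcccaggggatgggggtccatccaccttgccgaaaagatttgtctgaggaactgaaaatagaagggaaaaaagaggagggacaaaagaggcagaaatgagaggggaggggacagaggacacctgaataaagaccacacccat
CEACAM6: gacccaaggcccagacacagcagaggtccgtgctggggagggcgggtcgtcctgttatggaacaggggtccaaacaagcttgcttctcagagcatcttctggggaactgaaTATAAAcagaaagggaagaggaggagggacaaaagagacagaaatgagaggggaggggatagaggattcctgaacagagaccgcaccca

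The KRT20 stretch held TTTATG once, on the minus strand from -29 to -24, a word present in 9.64% of the 35116 promoters of the same length in the table. The CEACAM6 stretch held TATAAA once, from -139 to -134, as did 10.7% of promoters at some position. CAAAGT, a core of HNF4 sites, was found in 10.3% of promoters and in 0 of the 7 promoters listed for 6 of the 10 genes. GGGCGG, the GC box, was in 42.6% of promoters, among them that of CEACAM6 and both listed for HNF4A, and overlapped no match in capitals. The 250 bases before the RefSeq start held 10 CpG dinucleotides in CDX2, 2 in KRT20, 2 in CEACAM5 and 5 in CEACAM6, against a median of 11 over all promoters. For CEACAM5 these bases include exon bases of its GENCODE model, and for CEACAM6 they lie inside its GENCODE gene model. The stretches printed for CEACAM5 and CEACAM6 were identical at 152 of 193 aligned bases, or 73.4% of the alignment with its 14 gap bases counted. RefSeq promoters for CDX1, VIL1, CDH17 and EPCAM were not used here.

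The levels per length spanned the whole range from abundant to absent, as the plot of levels by gene shows. They are given as CPM per kilobase of annotated exon in the LMB group (mean ± SD, n = 3). EPCAM, a homophilic adhesion molecule of nearly all simple epithelia, stood highest at 196.7 ± 9.41, rank 134 of the 19629 protein-coding genes. KRT20, at 91.3 ± 7.37, and CDX2, at 38.8 ± 1.23, came next, at ranks 340 and 981. CDH17, the liver-intestine cadherin, followed at 26.8 ± 1.87, at rank 1543.

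The remaining genes lay well below these. CFTR stood at 3.79 ± 0.934, VIL1 at 2.78 ± 0.186 and HNF4A at 2.74 ± 0.476, between ranks 7685 and 8705. CEACAM5 at 0.0843 ± 0.0495 and CEACAM6 at 0.0763 ± 0.0305 were near the limit of counting, and CDX1 was at 0. Among neighbours in this order, the ranges over the 3 libraries overlapped between VIL1 and HNF4A and between CEACAM5 and CEACAM6. By this measure neither pair has an order beyond its spread. The range of CFTR also overlapped that of HNF4A, which is not its neighbour. Dividing by the longest annotated transcript in place of all exon bases raised the mean of CFTR to 10.2, that of HNF4A to 5.87 and that of EPCAM to 309.0 CPM per kilobase. VIL1 had a mean of 2.94 on that scale, below HNF4A, so the closeness of these means depends on the length used.

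**Figure D1:**
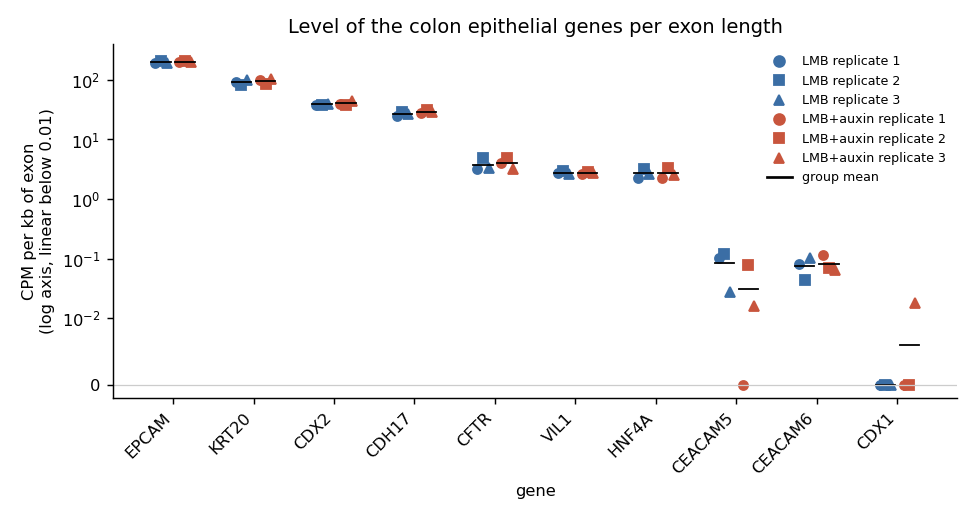
Level of each colon epithelial gene in every library, as CPM per kilobase of annotated exon, on a log axis that is linear near 0, for LMB and LMB+auxin (3 points each, 1 per library, with a bar at the group mean). EPCAM, KRT20, CDX2 and CDH17 lie well above CFTR, VIL1 and HNF4A, and CDX1, CEACAM5 and CEACAM6 lie at or near 0.

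Among the transcription factors, CDX2 (ENSG00000165556, chr13:27960918-27969315, minus strand) was read at 136, 132 and 141 CPM in LMB replicates 1, 2 and 3, and at 141, 136 and 155 CPM in LMB+auxin replicates 1, 2 and 3. The groups overlapped, and the LMB+auxin library was the higher in all 3 numbered pairs. The log2 fold change of LMB+auxin over LMB was 0.08 (SE 0.07, 95% confidence interval -0.08 to 0.24), with an adjusted p of 0.954 by edgeR. Its relative CDX1 (ENSG00000113722, chr5:150166778-150184558, plus strand) had 0 reads in 5 libraries and 1 read in LMB+auxin replicate 3. A count of 3, the limit that a count of 0 allows, would be 0.0834 to 0.104 CPM in these libraries, so CDX1 was below the limit of detection beside an abundant CDX2. Such limits cover counting error only.

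HNF4A (ENSG00000101076, chr20:44355699-44432845, plus strand) was read at 23.4, 33.0 and 27.1 CPM in LMB replicates 1, 2 and 3, and at 23.4, 33.8 and 25.4 CPM in LMB+auxin replicates 1, 2 and 3. Both replicate 2 libraries were above the other 4, and the groups overlapped. The log2 fold change with auxin was -0.02 (SE 0.16, interval -0.37 to 0.34, edgeR adjusted p 0.994).

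VIL1 (ENSG00000127831, chr2:218419121-218453295, plus strand), which bundles actin in the microvillus core, was read at 18.8, 20.6 and 18.1 CPM in the LMB libraries and at 18.2, 20.0 and 18.7 CPM in the LMB+auxin libraries, in the order of their numbers. The groups overlapped, with a log2 fold change of -0.01 (SE 0.09, interval -0.21 to 0.19, edgeR adjusted p 0.991). Of the exon bases of VIL1, 44.2% (3045 bases) are also exon bases of USP37, a deubiquitinase gene on the opposite strand that was read at 55.4 ± 1.68 CPM (SD, n = 3) in LMB. Even coverage of the USP37 exons would place 18.2 CPM in the shared bases, beside the 19.1 CPM of VIL1 itself. Such reads would enter the VIL1 count only if reads were counted on either strand and kept where genes overlap. Over 202 pairs of genes lying within the exons of another gene on the opposite strand, the inner gene had a median of 1.40 times the count per base of the outer gene, and over 89 pairs on the same strand the median was 0.48 times. The strand setting of the counting is not known, and the study's methods do not give its handling of reads in overlapping genes. How much of the VIL1 count comes from USP37 was not tested. USP37 was lowest in replicate 2 in both groups, at 53.9 and 56.0 CPM, and VIL1 was highest there. VIL1 differed between numbers by 1.10-fold and did not pass the test (edgeR adjusted p 0.300). The other 9 genes share at most 4.67% of their exon bases with another gene.

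KRT20 (ENSG00000171431, chr17:40875889-40885242, minus strand), a keratin of differentiated intestinal cells, was read at 177, 160 and 187 CPM in LMB replicates 1, 2 and 3. In LMB+auxin replicates 1, 2 and 3 it was read at 191, 165 and 195 CPM. Both replicate 2 libraries were below the other 4, the groups overlapped, and the LMB+auxin library was the higher in all 3 pairs. The log2 fold change was 0.07 (SE 0.09, interval -0.12 to 0.27, edgeR adjusted p 0.957).

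CDH17 (ENSG00000079112, chr8:94127162-94217303, minus strand), which joins cells by calcium-dependent contacts, was read at 96.9, 111 and 103 CPM in LMB replicates 1, 2 and 3. In LMB+auxin replicates 1, 2 and 3 it was read at 106, 121 and 112 CPM. Every pair was higher with auxin, yet the groups overlapped because the lowest LMB+auxin library lay below the highest LMB library. The log2 fold change of 0.12 (SE 0.08, interval -0.05 to 0.30) was the largest on the list and did not pass the test (edgeR adjusted p 0.954).

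EPCAM (ENSG00000119888, chr2:47345158-47387601, plus strand) was read at 458, 503 and 472 CPM in LMB replicates 1, 2 and 3. In LMB+auxin replicates 1, 2 and 3 it was read at 488, 497 and 488 CPM. The LMB+auxin libraries fell within the range of the LMB libraries, and the log2 fold change was 0.04 (SE 0.06, interval -0.10 to 0.18, edgeR adjusted p 0.965).

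CEACAM5 and CEACAM6 encode glycoproteins anchored in the apical membrane, the first of them the carcinoembryonic antigen measured in serum. CEACAM5 (ENSG00000105388, chr19:41708585-41730433, plus strand) had 12, 15 and 4 reads in LMB replicates 1, 2 and 3, and 0, 9 and 2 reads in LMB+auxin replicates 1, 2 and 3. CEACAM6 (ENSG00000086548, chr19:41750977-41772211, plus strand) had 7, 4 and 11 reads in LMB and 10, 6 and 6 reads in LMB+auxin, in the same order. These counts overlapped between groups and were too low for the test. Some may also be shared, since 1.46% of the read-length stretches of CEACAM5 transcripts and 1.75% of those of CEACAM6 occur in transcripts of another annotated gene.

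CFTR (ENSG00000001626, chr7:117287120-117715971, plus strand), the chloride and bicarbonate channel of the apical membrane, was read at 54.0, 81.8 and 55.2 CPM in LMB replicates 1, 2 and 3. In LMB+auxin replicates 1, 2 and 3 it was read at 66.6, 83.3 and 54.8 CPM. Both replicate 2 libraries were above the other 4, and the groups overlapped. The log2 fold change was 0.10 (SE 0.19, interval -0.35 to 0.54, edgeR adjusted p 0.970). CFTR was the only one of the 7 tested genes whose interval reached past a change of 1.3-fold, the size required for a call.

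Taking the 7 tested genes as a list, 0 were called between LMB+auxin and LMB, and 0 had an unadjusted edgeR p under 0.05. Over all genes tested, 1 of 16974 was called, or 0.00589%, and 741 had an unadjusted p under 0.05. The median log2 fold change was 0.07 over the 7 genes and -0.0027 over all genes tested. The groups did not overlap for 0 of the 7 genes, against 11.5% of all genes tested. All 3 pairs had the same sign for 3 of the 7 (CDX2, KRT20 and CDH17), against 41.9% of all genes.

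With the replicate number as a block, the fold changes stayed close to these values and their intervals narrowed, as the plot of changes with auxin shows. Again 0 of the 7 were called, against 201 of 16974 genes, or 1.18%. An unadjusted edgeR p under 0.05 was found for 1 of the 7 (CDH17), against 3376 of the 16974 genes. CDH17 had a log2 fold change of 0.12 (interval 0.03 to 0.22, edgeR adjusted p 0.124) in this fit. CFTR had 0.10 (interval -0.0038 to 0.21, edgeR adjusted p 0.269), so its interval no longer reached past 1.3-fold. DESeq2 called 0 of the 7 with the block or without it. In bulk RNA a change in the share of cells that express a gene and a change in RNA per cell cannot be told apart.

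**Figure D2:**
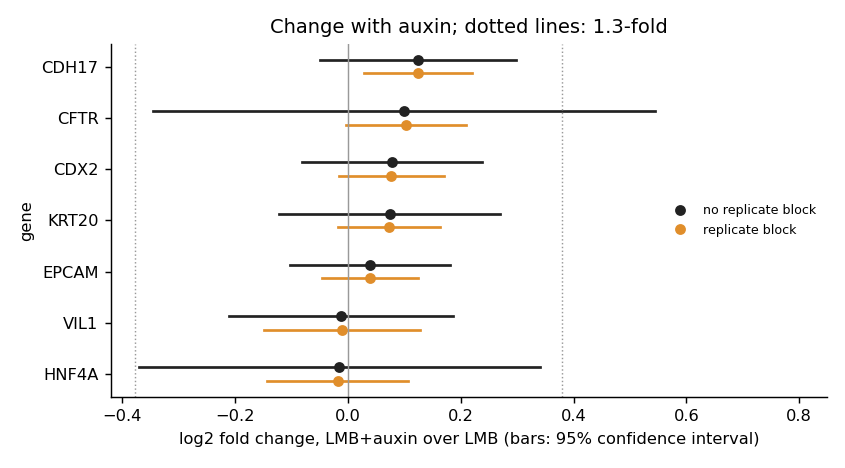
Log2 fold change of LMB+auxin over LMB for the 7 tested colon epithelial genes, with and without the replicate number as a block (points, with bars for the 95% confidence interval, and dotted lines at 1.3-fold). The points lie between -0.02 and 0.12 in both fits, and without the block only the interval of CFTR crosses a dotted line.

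CFTR and HNF4A differed between replicate numbers. The largest difference between any pair of numbers was 0.58 on the log2 scale for CFTR (edgeR adjusted p 8.7e-13) and 0.51 for HNF4A (edgeR adjusted p 9.9e-08). These are 2 of the 7 tested genes, beside 2432 of 16974 genes, or 14.3%, called between numbers. Both were highest in replicate 2, in which the mean over both groups was 82.5 CPM for CFTR and 33.4 CPM for HNF4A. What the number stands for (a day, a passage or a plate) was not given in the sources used here, and each number holds 1 library per group.

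KRT20 passed the adjusted p alone, with a difference of 1.18-fold (edgeR adjusted p 0.00110), and was lowest in replicate 2. CDH17 did so too, at 1.14-fold (edgeR adjusted p 0.0221). Neither reached 1.3-fold. Over all genes tested, 5726 of 16974 had an edgeR adjusted p under 0.05 between numbers, whatever the size of the difference. CDX2 (1.10-fold), VIL1 (1.10-fold) and EPCAM (1.06-fold) did not pass the test, with adjusted p of 0.109, 0.300 and 0.419 by edgeR. The median difference between numbers was 0.19 on the log2 scale over the 7 genes and 0.21 over all genes tested.

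**Figure D3:**
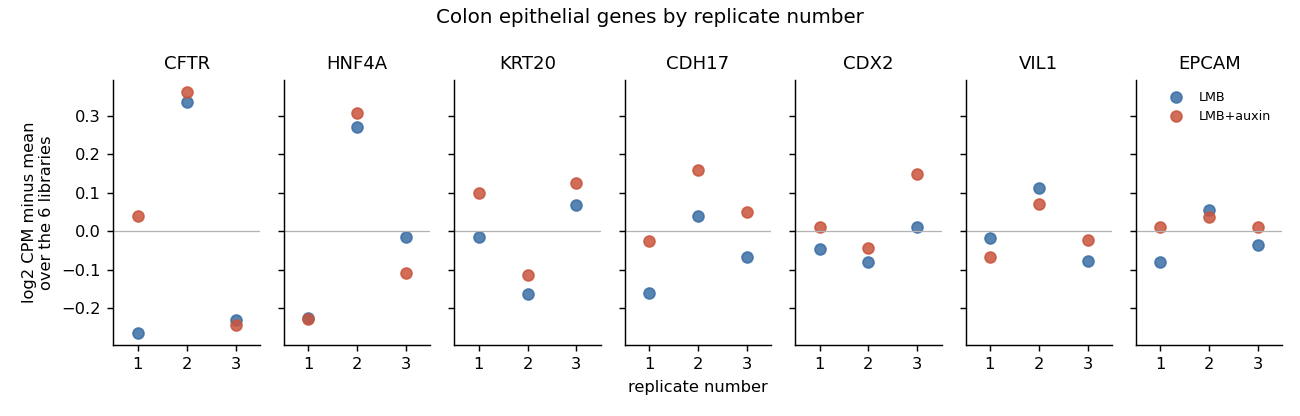
Log2 CPM of the 7 tested colon epithelial genes minus the gene's mean over the 6 libraries, by replicate number, with LMB and LMB+auxin in separate colours (1 point per library). CFTR and HNF4A peak in replicate 2 in both groups, and KRT20 is lowest there in both.

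Across the 6 libraries the log2 CPM of CFTR and HNF4A had a Pearson correlation of 0.814, and that of KRT20 and HNF4A one of -0.801. These are descriptions over libraries that share the same scaling and the same 3 numbers. Among 9561 protein-coding genes with a mean of at least 10 CPM, the patterns most like that of CFTR included those of RBL2 (r = 0.9995) and APH1B (0.9943). Those most like HNF4A were BEX3 (0.9977), TRAPPC1 (0.9971) and FYCO1 (0.9965), and those most like KRT20 were MCMBP (0.9967), UNG (0.9956) and CNOT9 (0.9946). Each value rests on 6 points, and none of these genes stood alone. Of the 9561 genes, 269 exceeded 0.9 with CFTR, 982 with HNF4A and 624 with KRT20.

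Wider lists of the epithelial programme place the 10 genes among their functional partners. Of 19 intestinal transcription factors, 14 were tested, and FOXA1, a pioneer factor of endodermal tissues, was the highest that is not among the 10 genes, at 29.3 ± 2.59 CPM per kilobase in LMB (n = 3). EHF, an ETS factor of epithelia, stood at 23.4 ± 2.84 in the same unit. Of 18 adhesion and junction genes 17 were tested, with E-cadherin (CDH1) at 77.6 ± 5.96 and the desmosome protein PKP3 at 52.1 ± 0.743 CPM per kilobase. Of 9 keratins 7 were tested, and KRT18 (801 ± 15.8) and KRT8 (499 ± 23.0), the pair of simple epithelia, stood far above KRT20 on the same scale. Of 12 brush border genes 9 were tested, led by EZR (135 ± 4.67), which ties the membrane to actin, and PLS1 (16.4 ± 0.392), another actin bundler.

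Of 12 ion transport genes 7 were tested, among them the chloride importer SLC12A2 at 63.3 ± 2.74 CPM per kilobase. Of 19 genes of absorptive colonocytes 4 were tested, and 4 had no read in any library. The highest of the 19 were carbonic anhydrase CA2, at 7.40 ± 0.712, and the sulfate transporter SLC26A2, at 3.40 ± 0.244 CPM per kilobase. Of 17 secretory genes 6 were tested, led by AGR2 (135 ± 38.7), a disulfide isomerase of mucus-producing cells, and the goblet cell peptide TFF3 (4.83 ± 0.475). Another 4 of the 17 had no read in any library, and the mucin gene MUC2, with 2 to 9 reads per library, was not tested. Of 8 crypt stem and progenitor genes 5 were tested, with ALCAM at 16.5 ± 1.67 and CD44 at 4.95 ± 0.355 CPM per kilobase. Of 12 CEACAM genes 1 was tested, CEACAM19 at 1.45 ± 0.246, and 3 had no read in any library. CEACAM20 stood at 0.105 ± 0.0115 CPM per kilobase, near the level of CEACAM5 and CEACAM6.

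Markers of other cell types were mostly near 0. Of 6 hepatocyte and 6 gastric genes, 0 passed the limit on low counts. Of the genes for lung epithelium, mesenchyme, immune cells and endothelium, 1 of 5, 2 of 12, 2 of 6 and 1 of 4 passed it. The summed CPM over a whole list in the LMB libraries was 0.224 to 0.416 for hepatocyte, 1.46 to 2.50 for gastric, 2.14 to 2.77 for lung, 20.2 to 22.6 for mesenchymal, 5.48 to 7.59 for immune and 3.47 to 5.29 for endothelial genes. It was 964 to 1042 for the 10 colon epithelial genes, of which EPCAM alone gave 458 to 503 CPM. These sums are not per length, and the lists differ in size. The leukocyte marker PTPRC had 0 or 1 read in each library and VIM at most 31 reads, while FN1, with 465 to 667 reads, made up most of the mesenchymal sum. VWF, the 1 endothelial gene tested, was highest in replicate 2, at 5.04 CPM against 2.72 CPM in replicate 1 (1.85-fold, edgeR adjusted p 5.9e-06). So were CFTR and 57.1% of all genes called between numbers. Whether the patterns of VWF and CFTR are linked was not tested.

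**Figure D4:**
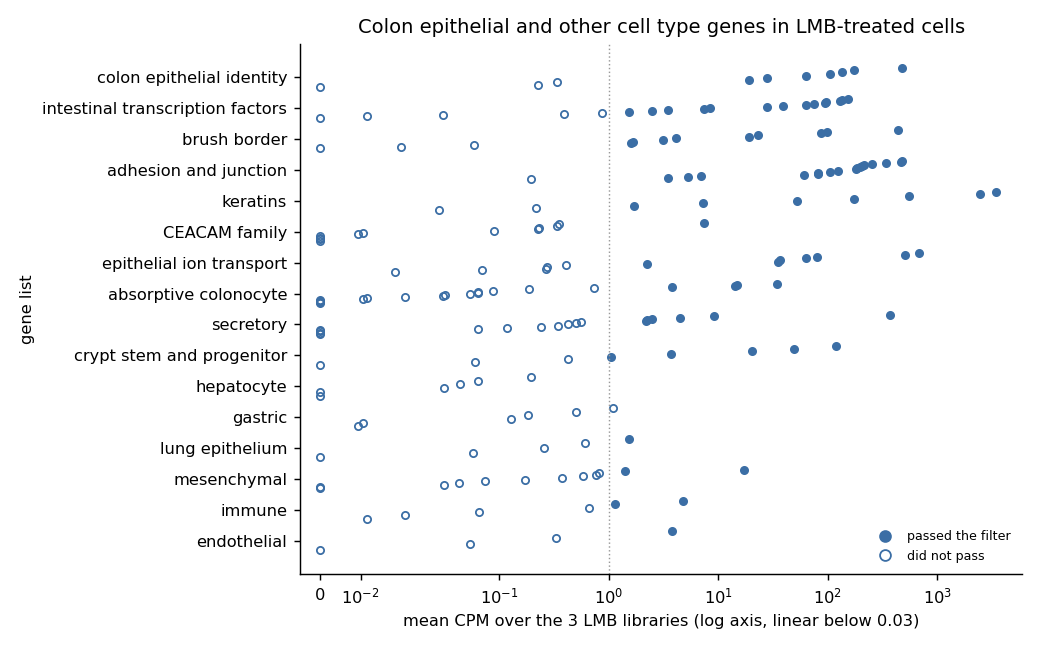
Mean CPM over the 3 LMB libraries for each gene of each list, on a log axis that is linear near 0, with filled points for genes that passed the limit on low counts and a dotted line at 1 CPM. Most adhesion genes and keratins lie to the right of the line, and most markers of other cell types to its left.

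Between LMB+auxin and LMB, 0 genes of these lists were called by edgeR without the block among genes that passed the limit on low counts, and 3 had an unadjusted p under 0.05 (1 each among transcription factors, adhesion genes and secretory genes). With the block, 3 were called, beside 201 of 16974 genes (1.18%). Of those 201 genes, 150 fell and 51 rose, so a fall was the more common direction among all calls. Whether these lists hold more calls than other genes was not tested. The 3 called genes of these lists all fell. DESeq2 with the block called 1 of the 3, CLDN4, and neither SLC9A3 nor MUC5B. In the edgeR fit with the block, 2 transcription factors passed the adjusted p alone. FOXA1 fell by 0.26 on the log2 scale (edgeR adjusted p 7.9e-05) and ELF3 rose by 0.19 (edgeR adjusted p 0.0140), and neither reached 1.3-fold. CLDN4, a claudin of tight junctions, was read at 205, 243 and 192 CPM in LMB replicates 1, 2 and 3 and at 134, 187 and 151 CPM in LMB+auxin replicates 1, 2 and 3. Each pair was lower with auxin and the groups did not overlap. It fell by 0.45 on the log2 scale in the fit with the block (edgeR adjusted p 4.8e-12). Without the block the log2 fold change was -0.44 with an edgeR adjusted p of 0.954, and with no filter on low counts it was also -0.44 and was called (edgeR adjusted p 0.00016).

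SLC9A3, a sodium and proton exchanger of the absorptive cell, was read at 19.5, 10.96 and 12.7 CPM in LMB and at 12.4, 9.71 and 10.5 CPM in LMB+auxin, in the order of their numbers. It fell by 0.38 on the log2 scale with the block (edgeR adjusted p 0.00108). MUC5B, a gel-forming mucin of low level here, was read at 2.77, 1.99 and 1.81 CPM in LMB and at 1.45, 1.17 and 1.58 CPM in LMB+auxin. It fell by 0.63 with the block (edgeR adjusted p 0.0229). SLC9A3 overlapped between the groups and MUC5B did not, and both were lower in all 3 pairs. Without replicate 1, 0 of the 3 were called in the fit with the block, while CLDN4 and SLC9A3 were called without replicate 2 or without replicate 3, and MUC5B without replicate 3 but not without replicate 2.

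Calls between replicate numbers are read beside the 14.3% called over all genes tested. Of 14 transcription factors tested 4 were called, and all were highest in replicate 2: HNF4A is one of them, and ISX, a homeobox factor of the intestine, differed by 2.01-fold (edgeR adjusted p 4.6e-07) and FOXA2 by 1.65-fold (edgeR adjusted p 0.0411). Of 17 adhesion and junction genes tested 7 were called, all highest there too, DSC2 by 1.65-fold (edgeR adjusted p 9.1e-05) and CLDN7 by 1.46-fold (edgeR adjusted p 1.2e-11). The same held for the 3 called of 7 ion transport genes tested, which besides CFTR were the potassium channel KCNQ1 (1.92-fold, edgeR adjusted p 5.6e-04) and the sodium channel subunit SCNN1A (1.82-fold, edgeR adjusted p 2.1e-23). Over all genes called, 57.1% were highest and 38.3% lowest in replicate 2.

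Among the remaining lists, keratins and brush border genes were mixed. Of 7 keratins tested 2 were called: KRT5 was lowest in replicate 2 (2.03-fold, edgeR adjusted p 2.5e-04) and KRT7 highest (1.41-fold, edgeR adjusted p 0.00233). Of 9 brush border genes tested 3 were called, of which ESPN was highest (1.65-fold, edgeR adjusted p 0.0131) and CDHR5 lowest (1.62-fold, edgeR adjusted p 0.0266). Of 6 secretory genes tested 3 were called, all highest there, AGR2 at 504 CPM against 305 and 344 CPM in the other numbers (edgeR adjusted p 3.6e-23). SLC9A3, the 1 called of 4 absorptive genes tested, was lowest in replicate 2. EPHB2, a receptor that positions crypt cells and the 1 called of 5 crypt genes tested, was highest (1.68-fold, edgeR adjusted p 2.1e-12).

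**Figure D5:**
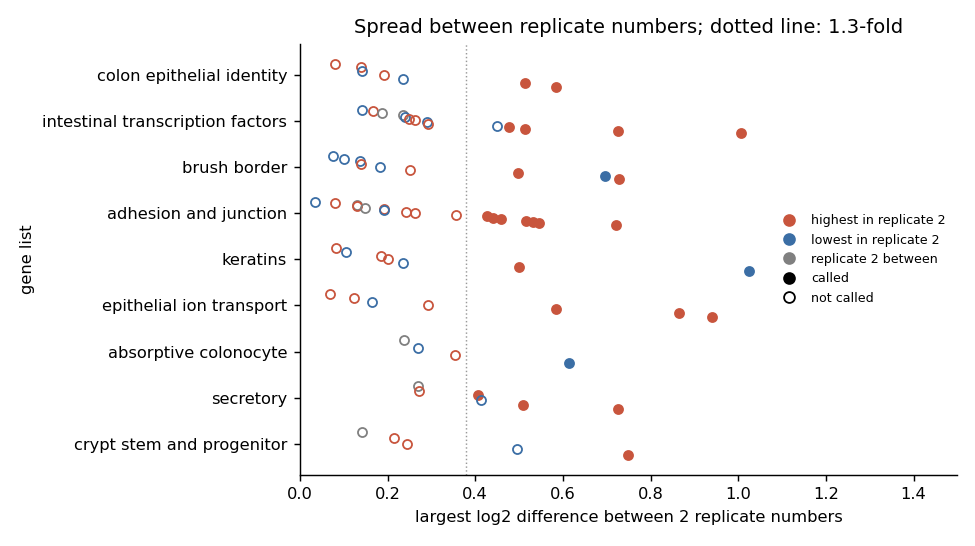
Largest log2 difference between any pair of replicate numbers for each tested gene of the epithelial lists, with filled points for genes called and colour for whether replicate 2 was highest, lowest or between. The called genes among transcription factors, adhesion genes, ion transport genes and secretory genes were all highest in replicate 2. The dotted line marks 1.3-fold.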

How the data were processed

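Per the labels, reads were demultiplexed with CASAVA 1.8.2, aligned to GRCh38 with STAR 2.6.1c and counted per gene with featureCounts 1.5.2. The authors removed ribosomal RNA, made stranded total RNA libraries and sequenced them paired-end, and the study's methods describe 3 independent replicates. The authors deposited unnormalized whole-number counts for each Ensembl gene. No source used here states the strand setting or how multiply mapped reads were handled. Symbols and gene models came from GENCODE 44 (98.1% of identifiers matched), a later release than the models used for counting. 0 columns of the table were left unused.

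Genes with CPM above 1 in at least 3 of 6 libraries were tested with edgeR 4.0.16 (TMM scaling, quasi-likelihood test, R 4.3.3, with limma 3.58.1 and DESeq2 1.42.0 as alternatives). A call needed a Benjamini-Hochberg adjusted p under 0.05 over all genes tested and a change of at least 1.3-fold. CPM values were TMM-scaled, and log2 CPM used a pseudocount of 0.5. The spread between replicate numbers was tested by the F test of the number terms beside the group. The pairing of numbers comes from the data: deviations from the group means correlated at r = 0.558, 0.724 and 0.307 between libraries sharing a number and at -0.60 to 0.16 between others, over 16974 genes. Scripts were tested on simulated counts.

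The 10 genes and all further lists were chosen with earlier results of these data known. Named besides the 10 were, per list, the 2 genes highest per length, up to 5 called with auxin and the 2 with the largest called difference between numbers, and the 3 genes most correlated with each of the 3 listed genes that varied most. Some genes that this rule selects are not reported here. PTPRC, VIM, USP37, MUC2 and ELF3 were named outside this rule, after their values were seen.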

Additional observations from a re-analysis of the deposited data

How the results depend on the processing

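Over 112 alternative values of the log2 fold changes of the 7 tested colon epithelial genes, 0 calls changed and 11 values changed sign. Leaving out 1 library at a time gave -0.069 to 0.33 for CFTR, -0.19 to 0.13 for HNF4A and -0.054 to 0.049 for VIL1. With the replicate block, VIL1 stood at 0.0059 without replicate 1 and 0.0096 without replicate 2, and HNF4A at 0.023 without replicate 3. The median over the 7 genes ran from 0.0095 (without LMB replicate 1) to 0.089 when 1 library was left out. It was 0.030 without LMB replicate 3, 0.031 without LMB+auxin replicate 2 and 0.044 without LMB+auxin replicate 3, and with the block and without replicate 1 it was 0.014.

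The count of genes called over the whole table, 1 of 16974, was 0 with library size alone (737 genes at an unadjusted edgeR p under 0.05), 39 with no filter on low counts and 11 by DESeq2. It was 201 with the replicate block, 30 with the block by DESeq2, and 133, 158 and 134 with the block and without replicates 1, 2 and 3. It ran from 0 to 5 when 1 library was left out. The count between replicate numbers, 2432, was 1163 by DESeq2, and it ran from 1496 without LMB+auxin replicate 2 to 2973 without LMB replicate 1. With no filter, CEACAM5 was also called between numbers, on counts of 0 to 15 (edgeR adjusted p 0.0238). CFTR and HNF4A were called between numbers under every alternative run.

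Levels per length were 10.2 for CFTR, 309.0 for EPCAM and 5.87 for HNF4A with the longest transcript. Depth limits CDX1, CEACAM5 and CEACAM6, for which no test was possible at the filter used.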

Other observations

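Among markers of cell types outside the colon, many had reads at a low level in every library, SFTPC, ZEB1 and CD14 among them. The genes given next are examples. The lung and thyroid transcription factor NKX2-1 was read at 1.54 ± 0.0601 CPM in LMB (SD, n = 3), with 37 to 54 reads in each of the 6 libraries. The gastric peptide TFF1 stood at 1.09 ± 0.456 CPM in LMB with 21 to 50 reads per library. CD68, a lysosomal protein used as a macrophage marker, stood at 4.80 ± 1.09 CPM and was lowest in replicate 2 (1.38-fold between numbers, edgeR adjusted p 0.0260), whereas VWF was highest there.

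The stretches before the RefSeq starts of CEACAM5 and CEACAM6 were the most alike of all pairs among the 7 promoters listed. Over 250 bases they were identical at 73.6% of the alignment, and the next pair (CFTR and CEACAM6) at 48.9%. By GENCODE these 250 bases include exon bases of CEACAM5, and those of CEACAM6 lie inside its gene model. Both genes lie on chromosome 19 in the same orientation. The correlation between CDH17 and EPCAM over the 6 libraries was 0.867, and that between KRT20 and VIL1 was -0.909, each a description over libraries that share scaling and replicate numbers.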
